A study of Mus musculus with 13 samples.

Results

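The transcripts described here form a module of 32 genes of glycolysis and the hypoxia response, read from mouse glomeruli after injection of an antibody against the podocyte protein THSD7A. The members were fixed by name: the enzymes that carry glucose to lactate (14 genes), the glucose and lactate transporters *Slc2a1* and *Slc16a3*, hypoxia-inducible targets (12 genes), and the hypoxia-inducible factor (HIF) genes *Hif1a*, *Epas1* and *Arnt* with the ubiquitin ligase component *Vhl* (4 genes). All 32 were found among the 35967 gene symbols, and 31 of them were among the 14322 genes that reached 1 TPM (transcripts scaled by length and library total) in at least 4 libraries and were tested. The exception was *Hk2*.

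Glycolysis splits glucose into pyruvate, which lactate dehydrogenase can reduce to lactate when oxygen is short or when cells favour this route. Under normal oxygen, prolyl hydroxylases mark the HIF alpha subunits for VHL-dependent degradation, and under low oxygen the alpha subunits persist, pair with ARNT and bind DNA at hypoxia response elements whose core is ACGTG. Many glycolytic genes carry such elements, which is why both sets are read together, and podocytes have been described as cells that draw much of their ATP from anaerobic glycolysis.

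All animals were wild-type Balb/c mice given 2.0 mg of rabbit IgG intraperitoneally, and the model was run in males. The control group (n = 5) received preimmune IgG, and the mice with membranous nephropathy (MN) received anti-THSD7A IgG and were killed after 1 day (MN day 1, n = 4) or 5 days (MN day 5, n = 4). Control mice of both days were pooled into a single group and the day of each is not given, so an effect of the day cannot be told apart within the controls. Each library came from glomeruli isolated by magnetic bead perfusion, so they hold podocytes, endothelial and mesangial cells together, and fewer cells of a type and less RNA per cell cannot be told apart. The summed TPM of 8 podocyte markers was 7559 to 10180 in controls, 8359 to 10220 on day 1 and 9120 to 9772 on day 5, so the labelled tissue was present in every library. The summed TPM of 10 proximal tubule markers was 2292 to 8307 in controls, 4009 to 7261 on day 1 and 2958 to 3590 on day 5, and the highest control value belonged to control replicate 5.

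Glycolytic transcripts were among the abundant messages of these glomeruli, and levels can be set side by side because TPM is scaled by transcript length. Aldolase A (*Aldoa*), which cleaves fructose bisphosphate, ranged from 847 to 1003 TPM over the 13 libraries, and *Gapdh*, the dehydrogenase of the payoff phase, from 548 to 868. *Ldha* (249 to 312.9), *Gpi1* (239.96 to 306), *Pkm* (266 to 349), *Pgam1* (170.3 to 213), *Tpi1* (163 to 226) and *Pgk1* (138 to 187) followed, then *Eno1* (83.0 to 104.01) and *Hk1* (59.3 to 74.8). The phosphofructokinase genes, encoding the committed step, were the least abundant of the detected enzymes, with *Pfkl* at 28.8 to 39.6, *Pfkm* at 31.9 to 40.7 and *Pfkp* at 17.3 to 25.3 TPM. *Hk2*, the inducible hexokinase and a known HIF target, stayed between 0.0429 and 0.624 TPM in every library of every group.

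**Figure D1:**
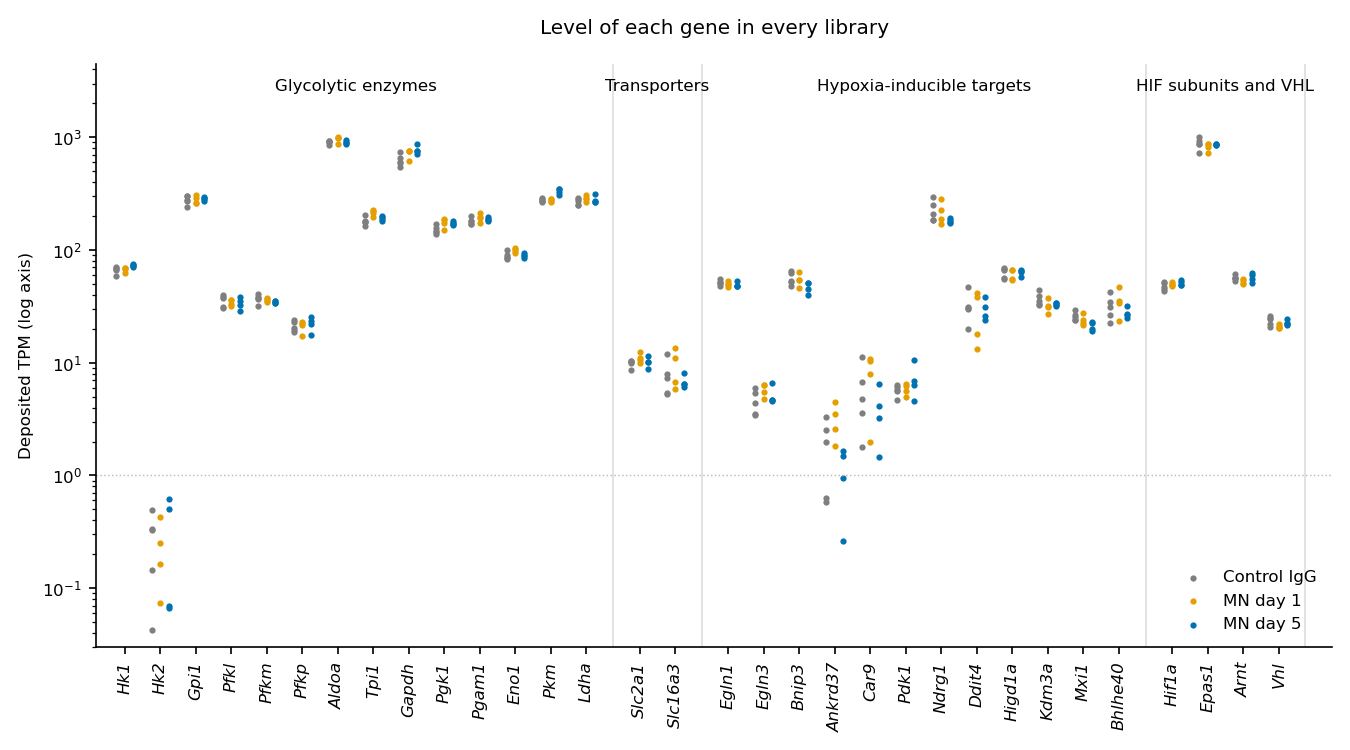
Deposited TPM (log axis) of all 32 genes in each library, grouped by role, with control IgG in grey, MN day 1 in orange and MN day 5 in blue. *Aldoa*, *Gapdh* and *Epas1* stand near the top and *Hk2* lies under 1 TPM in all 13 libraries, while the 3 groups overlap for most genes.

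For 3 enzyme steps nearly all TPM came from a single isoform. *Hk1* made up 94.7% to 99.5% of the summed hexokinase TPM, *Pkm* 97.0% to 99.7% of pyruvate kinase, and *Pgam1* 89.8% to 95.8% of phosphoglycerate mutase. Other steps were mixed. Enolase was divided over *Eno1* (41.1% to 45.8%), *Eno1b* (43.8% to 49.9%) and *Eno3* (5.36% to 11.1%), with the reservation on near-identical copies given below. Phosphofructokinase had mean shares in controls of 37.9% ± 1.88 for *Pfkl*, 39.6% ± 1.52 for *Pfkm* and 22.5% ± 1.60 for *Pfkp* (SD, n = 5), and on day 5 of 37.2% ± 1.72, 38.4% ± 2.96 and 24.4% ± 2.07 (SD, n = 4). The share of *Ldha*, the muscle-type subunit, against *Ldhb*, the heart-type subunit, was 60.3% ± 7.35 in controls, 53.2% ± 3.59 on day 1 and 65.8% ± 3.06 on day 5. Every day 5 library lay above every day 1 library for this share. The controls, at 51.3% to 69.7%, spanned the day 5 range and overlapped that of day 1 (49.0% to 57.1%). *Ldhb* itself was at 278 TPM in control replicate 5, 123 to 208 in the other controls, 216 to 280.05 on day 1 and 133 to 158 on day 5. It was thus high in the libraries with high proximal tubule sums, whose part in the share was not tested.

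The HIF system was also lopsided. *Epas1*, which encodes HIF-2 alpha, ranged from 727 to 998 TPM and *Hif1a* from 43.5 to 54.5, so that *Epas1* exceeded *Hif1a* by 14.8 to 21.4 times within a library and held 93.7% to 95.5% of the alpha subunit TPM. *Hif3a* held at most 0.160%. *Egln2*, which is not a member, was the most abundant prolyl hydroxylase with 56.9% to 63.2% of the family, followed by *Egln1* with 33.6% to 38.9% and *Egln3* with 2.58% to 5.17%. *Arnt* held 55.6% to 72.1% of the beta subunit TPM, its mean share being 61.6% ± 5.23 in controls and 70.6% ± 2.23 on day 5, with overlapping ranges. *Vhl* ranged from 20.2 to 25.9 TPM.

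**Figure D2:**
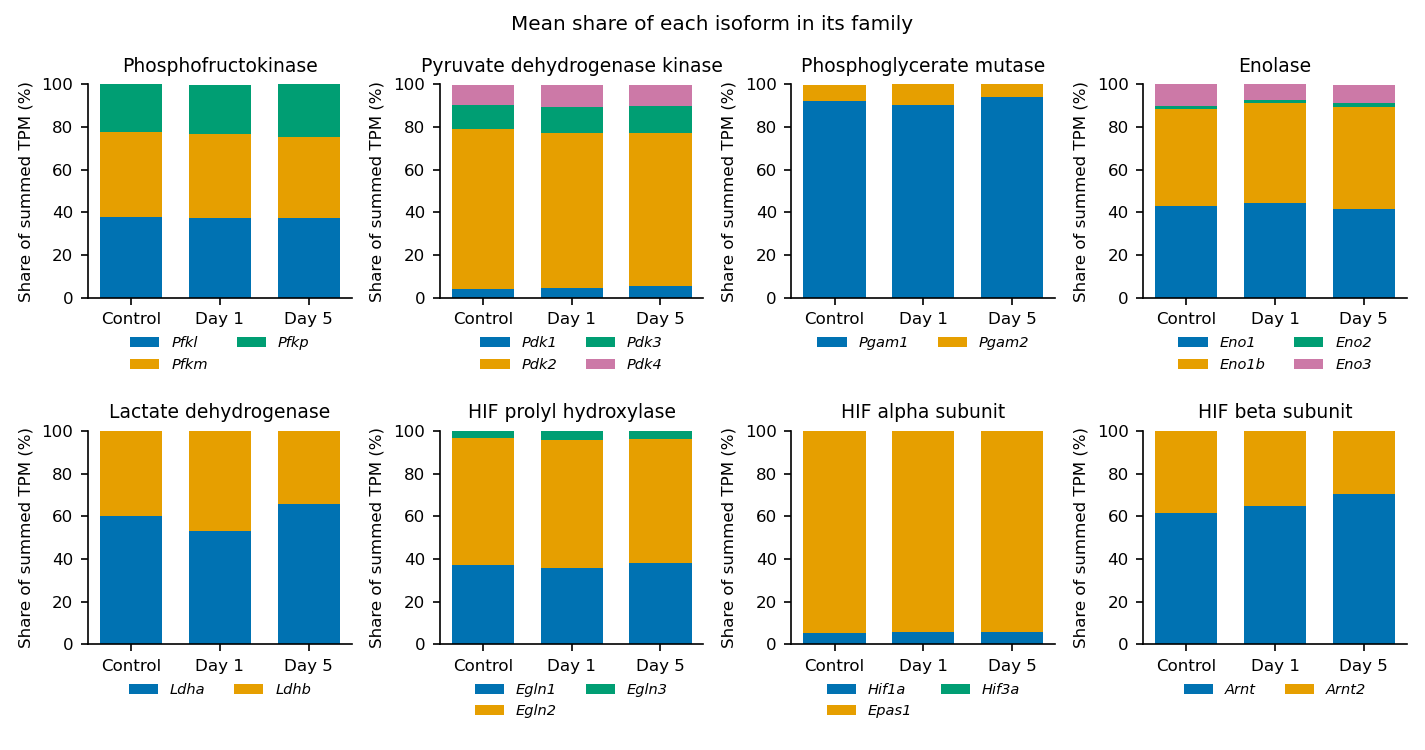
Mean share of each isoform in the summed TPM of its family (percent, stacked bars from 0 to 100) in control, day 1 and day 5 glomeruli. *Epas1* fills most of the HIF alpha bar in all 3 groups, *Pgam1* most of the mutase bar, and phosphofructokinase is divided over 3 genes.

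The first question was whether the module had moved 1 day after the antibody. No member passed the study's thresholds (an adjusted p below 0.05 together with a log2 fold change beyond 0.5 in either direction, here from limma on log2(scaled TPM + 0.5)), against 0.0908% of all genes tested, and none passed on the adjusted p alone, against 0.133%. All 13 tested glycolytic enzymes had a log2 fold change above 0, with a median of 0.13 and a range of 0.01 for *Pfkl* to 0.29 for *Tpi1*, whereas the median of all genes was −0.0029. At an unadjusted p under 0.05 there were 6 members (19.4%, against 12.6% of all genes), all higher on day 1: *Aldoa*, *Tpi1*, *Gapdh*, *Pgk1*, *Eno1* and *Egln3*. No member had day 1 TPM wholly outside the control range, against 4.22% of all genes.

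*Tpi1*, which interconverts the triose phosphates, had the largest of these enzyme differences. Its TPM was 177, 163, 177, 182 and 206 in controls and 226, 212, 198 and 221 on day 1, a log2 fold change of 0.29 ± 0.08 (SE) with a limma adjusted p of 0.201. A single control library, replicate 5, overlapped the day 1 range. *Eno1*, the enolase that forms phosphoenolpyruvate, was at 87.0, 84.9, 83.0, 90.5 and 101 TPM in controls and 104.01, 98.1, 94.3 and 103 on day 1, a log2 fold change of 0.21 ± 0.07 (SE; limma adjusted p = 0.268). The overlap again came from control replicate 5 alone.

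Without control replicate 5, the limma adjusted p on day 1 was 0.0199 for *Tpi1* (log2 fold change 0.35) and 0.0280 for *Eno1* (0.27), and still no member passed both thresholds. Leaving out that library also raised the day 1 calls over all genes from 13 to 218, so the shift was not particular to these enzymes. *Gapdh* and *Pgk1*, the next pair of enzymes in the payoff phase, had day 1 log2 fold changes of 0.25 and 0.24, with limma adjusted p of 0.347 and 0.306. On day 1 all 10 proximal tubule markers also had a log2 fold change above 0 (median 0.73, none called), as had all 9 tested markers of the loop, distal tubule and collecting duct (median 0.72, *Pvalb* called with a limma adjusted p of 0.0395). The summed TPM of the latter was 268 to 545 in controls, 530.3 to 967 on day 1 and 364 to 499 on day 5. With a proximal tubule score as a covariate, the day 1 log2 fold changes became 0.12 for *Tpi1*, 0.07 for *Eno1*, 0.07 for *Pgk1* and 0.01 for *Gapdh*, while *Aldoa* was at 0.14 with and without it and *Egln3* at 0.53 with it and 0.37 without. That score was 5.98 to 6.54 on day 1, and only control replicate 5 (6.63) was as high, the other controls being at 4.91 to 5.66. The adjusted values therefore rest largely on 1 control library, and the part of the score cannot be told apart from that of the group.

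**Figure D3:**
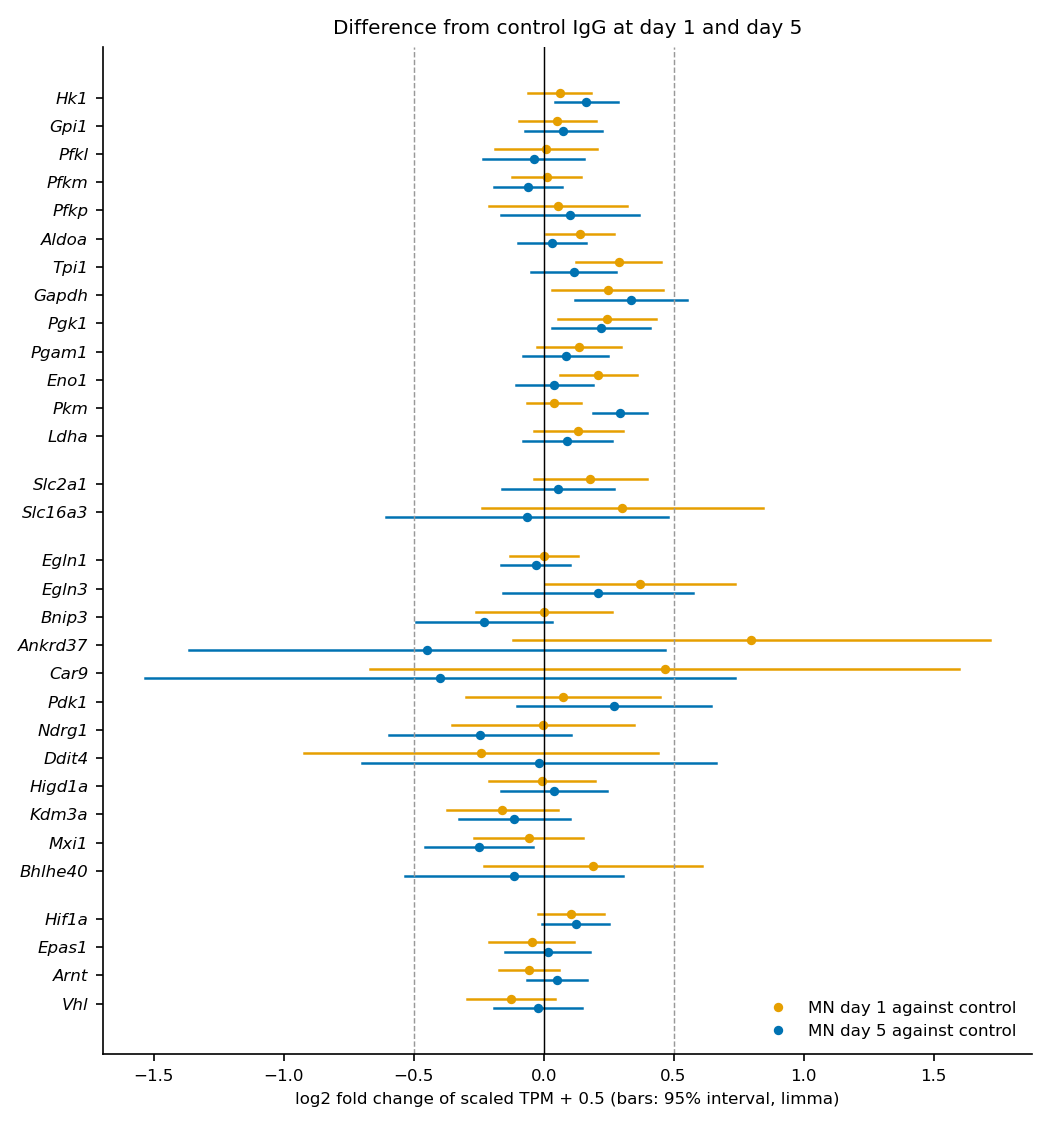
log2 fold change of scaled TPM + 0.5 against control for the 31 tested genes, day 1 in orange and day 5 in blue, with 95% intervals and dashed lines at −0.5 and 0.5. The glycolytic enzymes lie between 0.01 and 0.29 on day 1, and *Pkm* on day 5 (0.29) has a narrow interval clear of 0, while *Ankrd37*, *Car9* and *Ddit4* have the widest intervals.

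By day 5 the module as a whole again held no member past both thresholds, against 3.21% of all genes. On the adjusted p alone, 1 of 31 members passed (3.23%, against 6.12% of all genes). It was *Pkm*, pyruvate kinase M, the last step of glycolysis. At an unadjusted p under 0.05 there were 5 members (16.1%, against 20.1%): *Pkm*, *Hk1*, *Gapdh* and *Pgk1*, all higher, and *Mxi1*, lower. The median log2 fold change over members was 0.04, against −0.0032 over all genes. For 22 of 31 members (71%, against 61.3% of all genes) the 95% interval of the day 5 difference lay within −0.5 to 0.5, and on day 1 this held for 25 of 31 (80.6%, against 65.2%). A doubling of these transcripts is therefore outside the 95% interval for most of the module.

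*Pkm* lies at chr9:59563364-59586663 on the plus strand (GRCm39). Its TPM was 281, 273, 275, 289.5 and 267 in controls, 273, 281, 266 and 282 on day 1, and 345, 308, 349 and 326 on day 5. Control and day 1 libraries shared a range, and each day 5 library lay above all of them. The log2 fold change was 0.29 ± 0.05 (SE) against control, a fold of 1.23 with a limma adjusted p of 0.00248, and 0.26 ± 0.05 against day 1 with an adjusted p of 0.0172. On day 1 it differed from control by 0.04 (95% interval −0.07 to 0.14), and with the TPM as deposited that value turned to −0.01. The day 5 difference from control kept an adjusted p under 0.05 in all 13 fits that left out a library. The difference from day 1 lost it without MN day 5 replicate 1 (0.0517) or replicate 3 (0.0522). TPM per gene sums the M1 and M2 splice forms of *Pkm*, so they were not told apart here.

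*Hk1*, which phosphorylates glucose at the start of the pathway, was at 69.3, 67.1, 68.1, 70.1 and 59.3 TPM in controls, 67.5, 69.7, 63.0 and 69.5 on day 1, and 70.9, 74.8, 72.7 and 73.6 on day 5. The day 5 libraries stood above the rest without overlap, by a narrow margin. The log2 fold change from control was 0.16 ± 0.06 (SE; limma adjusted p = 0.108), which did not pass. In all, 3 members did not overlap between day 5 and control (9.68%, against 10.8% of all genes), namely *Pkm*, *Hk1* and *Mxi1*. *Mxi1*, a MAX-binding antagonist of MYC that HIF induces, was at 26.3, 24.0, 23.8, 25.4 and 29.6 TPM in controls and 22.6, 19.1, 19.9 and 22.9 on day 5. Its log2 fold change was −0.25 ± 0.10 (SE), with a limma adjusted p of 0.168.

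*Gapdh* had the largest day 5 log2 fold change of the enzymes, 0.34 ± 0.10 (SE; limma adjusted p = 0.0651). Its TPM was 607, 548, 586, 654 and 739.6 in controls, 749.8, 754, 619 and 754 on day 1, and 749.9, 705, 868 and 760.4 on day 5. Again only control replicate 5 reached the day 5 range. Without it the log2 fold change was 0.41 and the adjusted p 0.0146, and without MN day 1 replicate 3 they were 0.34 and 0.0419. With the proximal tubule score as a covariate the log2 fold change was 0.32 and the adjusted p 0.00422. The gene has 159 near-identical copies in the annotation (90% identity or more across 50% or more of the transcript), of which 145 were in the table, and the processed pseudogene *Gm13394* alone was assigned a mean of 497 TPM. With these copies summed into *Gapdh*, the log2 fold change was 0.32 and the adjusted p 0.0488. Reads assigned between gene and copies are uncertain, and the same holds for *Eno1*, whose near-identical *Eno1b* had a mean of 101 TPM.

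**Figure D4:**
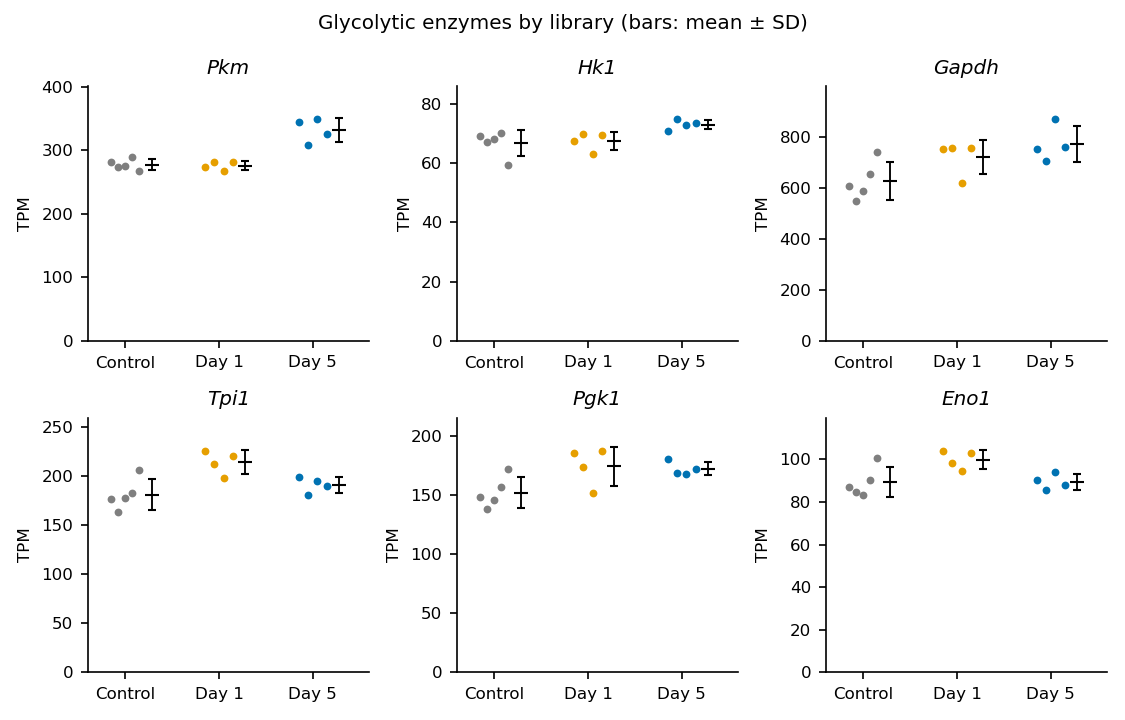
Deposited TPM per library for 6 glycolytic enzymes, with group mean ± SD beside the points and axes from 0. The 4 day 5 libraries of *Pkm* (308 to 349) lie above all controls (267 to 289.5) and all day 1 libraries (266 to 282), and for *Gapdh*, *Tpi1*, *Pgk1* and *Eno1* the highest control point is replicate 5.

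The hypoxia-inducible members were divided in direction on day 1 and leaned lower on day 5. On day 1, 7 of 12 had a log2 fold change above 0 (median 0.0008), and on day 5, 3 of 12 did (median −0.11), with none past the adjusted p on either day. Over all genes tested, 7062 of 14322 were above 0 on day 5 (median −0.0032). Without control replicate 5, the day 5 values of *Bhlhe40* (0.015) and *Ddit4* (0.0026) moved from below to above 0. The lean on day 5 thus rests in part on that library. *Pdk1*, whose product inhibits pyruvate dehydrogenase, was at 4.55, 6.91, 10.5 and 6.30 TPM on day 5 against 4.70 to 6.34 in controls, a log2 fold change of 0.27 ± 0.17 (SE; limma adjusted p = 0.428). A single day 5 library, replicate 3, lay well above the rest, and without it the log2 fold change was 0.09. *Bnip3*, a mitophagy receptor, was at 51.0, 39.7, 45.5 and 51.0 TPM on day 5 and 48.2, 53.0, 65.3, 52.5 and 63.0 in controls, a log2 fold change of −0.23 ± 0.12 (SE; limma adjusted p = 0.322). *Ndrg1*, a stress-responsive gene of differentiation, spanned 185 to 296 TPM in controls, 171 to 286 on day 1 and 175 to 192 on day 5.

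*Ankrd37*, a small ankyrin repeat gene used as a hypoxia marker, had the widest swing between the MN days. It was at 1.97, 0.625, 0.584, 3.30 and 2.52 TPM in controls, 2.56, 3.51, 4.50 and 1.83 on day 1 and 0.264, 1.64, 1.49 and 0.944 on day 5. Day 1 and day 5 did not overlap, and controls covered most of both ranges. The day 5 against day 1 log2 fold change was −1.25 ± 0.45 (SE), with a limma adjusted p of 0.187. Against control the log2 fold change was 0.80 on day 1, and 0.44 with the proximal tubule covariate, and on day 5 it was −0.45, and −0.14 without MN day 5 replicate 1. *Car9*, the membrane carbonic anhydrase that exports acid in hypoxic cells, was at 11.2, 6.77, 1.80, 4.72 and 3.60 TPM in controls, 10.3, 1.99, 7.89 and 10.8 on day 1 and 6.50, 1.47, 3.22 and 4.17 on day 5. Its groups overlapped throughout, and its 95% intervals against control ran from −0.67 to 1.60 on day 1 and from −1.53 to 0.74 on day 5. The intervals of both genes reached past a 2-fold difference, upward on day 1 and downward on day 5.

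The remaining targets overlapped between groups. *Egln1* and *Egln3*, the prolyl hydroxylases that HIF itself induces, were at 46.7 to 55.2 and 3.41 to 6.67 TPM. *Higd1a*, a mitochondrial inner membrane protein, was at 54.6 to 69.6 TPM, the histone demethylase gene *Kdm3a* at 27.3 to 44.0, and *Bhlhe40*, a transcriptional repressor, at 22.6 to 47.3. *Ddit4*, an inhibitor of mTORC1 that also responds to glucocorticoids and stress, ranged widely, from 13.4 to 41.8 TPM within the 4 day 1 libraries alone. The glucose transporter gene *Slc2a1* was at 8.68 to 12.4 TPM and the lactate exporter gene *Slc16a3* at 5.27 to 13.4.

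*Hif1a* was at 52.5, 46.6, 45.4, 51.5 and 43.5 TPM in controls, 52.1, 47.9, 50.1 and 49.2 on day 1 and 48.6, 51.5, 54.5 and 48.8 on day 5. The groups overlapped, with a day 5 log2 fold change of 0.12 ± 0.06 (SE; limma adjusted p = 0.269). *Epas1* was at 864, 998, 929.9, 876 and 733 TPM in controls and 866, 874, 854 and 860.3 on day 5, a log2 fold change of 0.02 (95% interval −0.15 to 0.18), whose sign turned with the TPM as deposited. HIF alpha subunits are controlled mainly by protein degradation, which RNA does not report.

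Between the MN days, again no member passed both thresholds, against 1.81% of all genes, and *Pkm* was the 1 member past the adjusted p (3.23%, against 2.38%). At an unadjusted p under 0.05 there were 3 members (9.68%, against 15.5%), *Pkm*, *Eno1* and *Ankrd37*. For 4 members the TPM of day 5 and day 1 did not overlap (12.9%, against 11% of all genes): *Pkm* and *Hk1* were higher on day 5, and *Eno1* and *Ankrd37* lower. The 95% interval lay within −0.5 to 0.5 for 22 of 31 members (71%, against 62% of all genes). The *Eno1* log2 fold change was −0.17 ± 0.07 (SE; limma adjusted p = 0.281) and that of *Hk1* 0.10 ± 0.06 (adjusted p = 0.431). With the near-identical copies summed, the *Eno1* value was −0.11 (limma adjusted p = 0.503), and the summed TPM overlapped (205.9 to 216.3 on day 5, 209.2 to 239.3 on day 1). With the proximal tubule covariate the *Eno1* value was −0.03. The proximal tubule score did not overlap between the MN days (5.98 to 6.54 on day 1, 5.53 to 5.82 on day 5). In this comparison its part therefore cannot be told apart from that of the day. All 10 proximal tubule markers (median −0.69, none called) and all 9 of the loop, distal tubule and collecting duct (median −1.22, *Aqp2*, *Calb1* and *Pvalb* called) had a log2 fold change below 0 from day 1 to day 5. This comparison shares its MN libraries with the comparisons against control, which share their control libraries with each other.

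The rest of the pathway was read from gene lists written with earlier results of these data known. Among 24 other glycolytic enzymes and regulators, 19 were tested and none was called on either day against control. *Pfkfb3* is a HIF target whose product makes an activator of phosphofructokinase. It was at 20.9, 25.0, 25.7, 21.3 and 17.5 TPM in controls, 25.5, 21.7, 19.9 and 17.4 on day 1 and 14.3, 13.5, 19.7 and 13.6 on day 5. The day 5 log2 fold change was −0.49 ± 0.13 (SE; limma adjusted p = 0.0482), just under the fold threshold, and the adjusted p stayed under 0.05 in 4 of 13 fits that left out a library. *Pgam2*, the muscle-type mutase, was lower on day 5 than on day 1 (log2 fold change −0.81 ± 0.18 SE, limma adjusted p = 0.0298), and with the proximal tubule score as a covariate this became −0.58 with an adjusted p of 0.269. It passed in 8 of 13 fits that left out a library. No gene was called in any comparison among the 12 tested other glucose and monocarboxylate transporters, 12 pyruvate dehydrogenase genes, 6 gluconeogenic genes, 7 pentose phosphate genes and 14 other genes of oxygen sensing. *Elob*, an adaptor of the VHL ligase, passed the adjusted p alone on day 5 and was picked out after its values were seen (log2 fold change 0.24 ± 0.05 SE, limma adjusted p = 0.0156).

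Calls were found among hypoxia-inducible genes outside the module, although the difference between the lists was not tested. Because this list was also written with earlier results known, its number of calls is a description and not independent evidence. Of 44 such genes 42 were tested, and on day 5 the calls were *Adm*, *Car12*, *Loxl2* and *Plod2*, higher, and *Zfp395*, lower, against 3.21% of all genes called. On day 1 none was called. The list median was −0.02 on day 5, with 20 above 0 and 22 below.

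*Adm* encodes the vasodilator peptide adrenomedullin. Its TPM was 69.5, 69.1, 86.9, 98.7 and 109 in controls, 125, 173, 165 and 123 on day 1 and 270.03, 155, 109.9 and 188 on day 5. Each MN library exceeded each control, narrowly for day 5 replicate 3. The day 5 log2 fold change was 1.04 ± 0.24 (SE; limma adjusted p = 0.0192) and the day 1 value 0.81 ± 0.24 (adjusted p = 0.244). The day 5 adjusted p was 0.0567 without MN day 5 replicate 1 and 0.0539 without replicate 4.

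*Car12* encodes another membrane carbonic anhydrase. It was at 27.5, 25.7, 33.0, 37.6 and 47.7 TPM in controls, 53.5, 59.6, 44.0 and 55.9 on day 1 and 70.3, 39.9, 66.5 and 65.5 on day 5. Day 5 replicate 2 and control replicate 5 overlapped, and the other libraries of these groups were apart. The day 5 log2 fold change was 0.85 ± 0.20 (SE; limma adjusted p = 0.0215). The adjusted p was 0.0836, 0.0574 and 0.0607 without MN day 5 replicates 1, 3 and 4, and 0.0536 without control replicate 1. On day 1 the log2 fold change was 0.70 with an adjusted p of 0.233. Without control replicate 5 it was 0.84 with an adjusted p of 0.0323, in a fit with 218 calls over all genes against 13 with that library. With the proximal tubule covariate the day 1 value was 0.27 with an adjusted p of 0.725.

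*Loxl2* and *Plod2* encode enzymes that act on collagen, a lysyl oxidase that cross-links it and a lysyl hydroxylase. *Loxl2* was at 94.1, 65.7, 97.8, 103 and 101 TPM in controls, 106, 112, 105 and 149 on day 1 and 198, 196, 173 and 154 on day 5. The day 5 libraries lay above all others. The day 5 log2 fold change was 1.01 ± 0.15 (SE; limma adjusted p = 0.00131), and it passed in all 13 fits that left out a library. *Plod2* was at 83.9 to 106 TPM in controls, 79.5 to 122 on day 1 and 136 to 168 on day 5, a log2 fold change of 0.71 ± 0.13 (SE; limma adjusted p = 0.00625).

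*Zfp395*, a zinc finger gene that hypoxia induces, was at 24.9, 24.1, 21.8, 20.1 and 28.6 TPM in controls, 17.8, 16.9, 18.5 and 18.4 on day 1 and 15.6, 13.1, 17.5 and 18.6 on day 5. All 8 MN libraries lay below all controls. The day 5 log2 fold change was −0.52 ± 0.11 (SE; limma adjusted p = 0.0135), and without MN day 5 replicate 2 it was −0.43 with an adjusted p of 0.0529.

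Between the MN days the calls in this list of 42 tested genes were *Lox* (0.70) and *Plod2* (0.60), higher on day 5, and *Tfrc* (−1.31), lower, on the log2 scale. Of all genes, 1.81% were called in this comparison. The limma adjusted p was 0.0428, 0.0425 and 0.00837, and the first 2 stayed under 0.05 in 3 and 4 of 13 fits that left out a library, *Tfrc* in all 13. With the proximal tubule covariate none of the 3 passed, with adjusted p of 0.189 for *Lox* (0.71), 0.0994 for *Plod2* (0.69) and 0.0958 for *Tfrc* (−0.97). Of the proliferation markers, 8 of 8 were called on day 5 against control, where 3.21% of all genes were. They summed to 25.5 to 38.9 TPM in controls, 21.4 to 37.2 on day 1 and 132 to 195 on day 5, and their part in the *Pkm* difference or in the calls of this list was not tested.

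**Figure D5:**
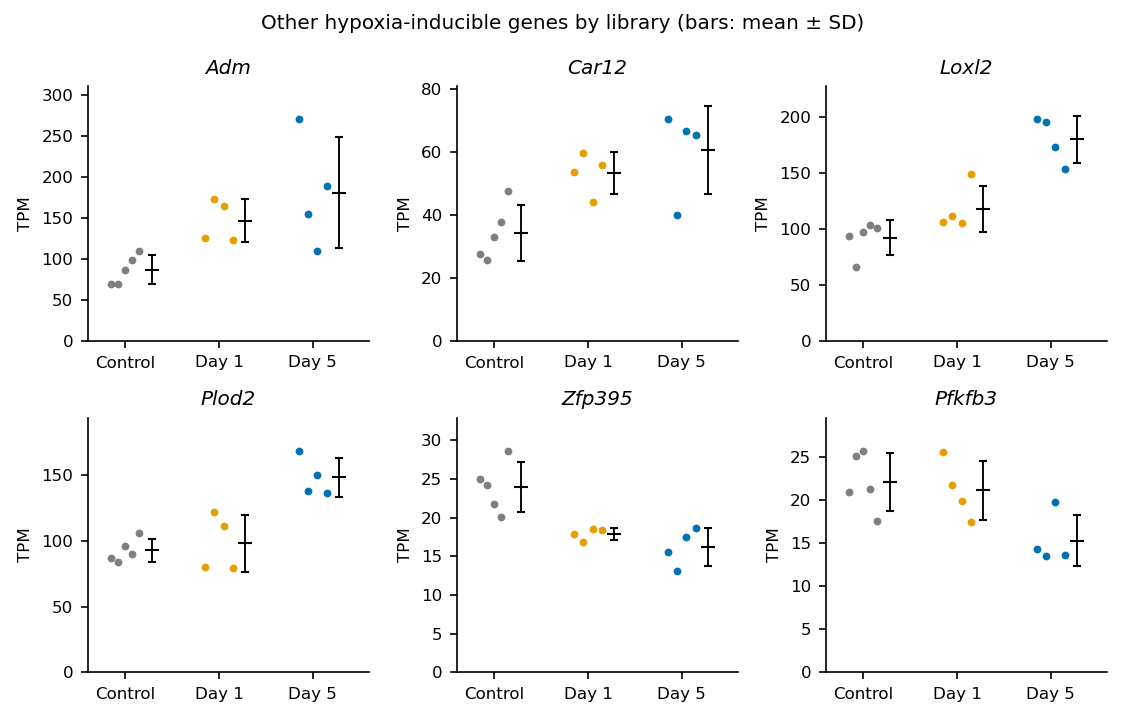
Deposited TPM per library for 6 hypoxia-inducible genes outside the module, with group mean ± SD beside the points and axes from 0. *Loxl2* and *Plod2* on day 5 lie above all controls, *Zfp395* lies lower in all 8 MN libraries, and *Adm* spreads from 109.9 to 270.03 TPM on day 5.

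The hypoxia response element core was common before the canonical starts of the module. In the 250 bases before the annotated canonical start (GENCODE on GRCm39), ACGTG was present on at least one strand for 16 of 32 members (50%) and for 22 of the 44 other hypoxia-inducible genes (50%), against 17.0% of 21757 protein-coding genes. Both lists were chosen by name, and the protein-coding genes were not matched to them for expression or base composition, so these shares are a description. Where the core lies within CACGTG, the match is counted on both strands. For *Ldha*, *Ankrd37*, *Mxi1* and *Hif1a*, among others, the canonical start and the bases before it lie inside the annotated gene. Some matches with 20 bases on each side overlap an exon of the gene, as for *Aldoa* and *Ddit4*. Windows with 20 bases on each side are shown for a member of each kind described above, an enzyme of the payoff phase, the lactate step, the target with the widest swing, the target whose day 5 range lay below that of controls, and an alpha subunit. Capitals mark the match shown, and each window is written 5′ to 3′ on the strand of its gene. The *Pgk1* window also holds a match on the other strand, left in lower case.
*Pgk1* (chrX:105230536-105230580, plus strand): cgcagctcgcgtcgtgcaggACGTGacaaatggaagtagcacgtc
*Ldha* (chr7:46495064-46495108, plus strand): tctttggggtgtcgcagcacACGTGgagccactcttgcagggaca
*Ankrd37* (chr8:46453104-46453148, minus strand): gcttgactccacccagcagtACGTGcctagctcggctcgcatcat
*Mxi1* (chr19:53317758-53317802, plus strand): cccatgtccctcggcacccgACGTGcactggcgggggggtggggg
*Hif1a* (chr12:73954487-73954531, plus strand): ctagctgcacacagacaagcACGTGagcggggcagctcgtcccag

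These 5 genes spanned both directions. *Pgk1*, *Ldha*, *Ankrd37*, *Mxi1* and *Hif1a* carry it and had day 5 log2 fold changes from −0.45 for *Ankrd37* to 0.22 for *Pgk1*, none past the adjusted p. *Pkm*, the member that passed, has no ACGTG in this window. A match is a description of letters and not a bound site.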

How the data were processed

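Glomerular RNA of 13 mice (5 control, 4 MN day 1, 4 MN day 5; 1 library per animal) was sequenced and quantified by the authors. Per the labels, reads were checked with FastQC 0.11.9, trimmed with Trimmomatic 0.39 and quantified against GRCm39 with kallisto 0.46.2, and the deposited values are TPM per gene symbol (summing to 989774 to 996064 per library). Read depth is unknown from TPM, and no counting interval is given. For this report TPM was divided by median-of-ratios factors (0.955 to 1.04), log2(TPM + 0.5) was taken, and genes at 1 TPM or more in at least 4 libraries (14322) were fitted with limma 3.58.1 in R 4.3.3, all 3 groups together, with Benjamini-Hochberg adjustment within each comparison. A fold change is on this scale and understates the change of low genes. The study's thresholds were kept (adjusted p below 0.05, log2 fold change beyond 0.5 in either direction). The study applied them to another test, DESeq2, so the calls here need not match its own. The fit was tested on simulated data. The members and gene lists were chosen with earlier results of these data known. All members are named, with genes of other lists where called or where needed for an isoform share. Of the genes needed for a share, 1 is not reported here. Near-identical copies were sought with BLAST 2.17.0 in GENCODE transcripts, and the bases before each canonical start were read from the GRCm39 sequence. Alternatives were the pseudocount, scaling, filter, variance trend, array weights, groups in the fit, a replicate block, a proximal tubule covariate, summed copies and leaving out each library. Their use on single genes outside the module was chosen after seeing the data.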

Additional observations from a re-analysis of the deposited data

Results flagged for a closer look

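Over 96 combinations of a member and a group, 7 held a library set apart from the rest of its group by Dixon's criterion, where chance gives about 1 in 20. In control replicate 5, *Hk1* was at 59.3 TPM (other controls 67.1 to 70.1) and *Slc2a1* at 8.68 (9.96 to 10.4). In MN day 1 replicate 3, *Aldoa* was at 877 TPM (982 to 1003 in the other day 1 libraries) and *Gapdh* at 619 (749.8 to 754). In MN day 5 replicate 1, *Ldha* was at 313 TPM (266 to 272 in the other day 5 libraries) and *Egln1* at 53.2 (47.6 to 47.8). In MN day 5 replicate 4, *Egln3* was at 6.67 TPM (4.60 to 4.67). *Pkm* differed between the MN days, with a log2 fold change of 0.26 (limma adjusted p = 0.0172), which came from a test of the day 5 against day 1 contrast itself.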

How the results depend on the processing

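No member passed both thresholds in any comparison under any alternative or with any library left out. On the adjusted p alone, 1 member passed on day 5 and 1 between the MN days. *Pkm* on day 5 passed the adjusted p in all 12 other settings, and between the MN days in 10 of 12 (0.0533 with only the 2 groups compared, 0.0531 with the tubule covariate). The replicate numbers did not pair the animals, the correlations of same-numbered deviations being −0.0563 to 0.0913. A replicate block also removes control replicate 5, whose number no other library shares, and gave 149, 348 and 331 calls over all genes (13, 460 and 259 without it) on day 1, on day 5 and between the days. With the block the calls among other glycolytic genes were 3, 1 and 2 in these comparisons (0, 0 and 1 without it), among gluconeogenic genes 1 on day 1 and 1 between the days (0 and 0), and among other hypoxia-inducible genes 1 on day 1 (0). The block put *Tpi1* and *Eno1* on day 1 and *Gapdh* on day 5 under an adjusted p of 0.05 (0.0391, 0.0479 and 0.0350), and *Adm* (0.0513) and *Zfp395* (0.0528) above it. Between the days, other glycolytic calls were 2 with TPM as deposited and 0 with no filter, and other hypoxia-inducible calls were 1 with no filter. Signs turned for *Pkm* on day 1 with TPM as deposited (−0.0069), *Epas1* on day 5 with TPM as deposited (−0.020), quantile normalization (−0.062) and the block (−0.036) and over left-out libraries (−0.036 to 0.053), and over left-out libraries *Slc2a1* on day 5 (−0.020 to 0.13), *Slc16a3* on day 5 (−0.17 to 0.10) and *Ddit4* on day 1 (−0.48 to 0.050). Without control replicate 5, *Bhlhe40* (0.015) and *Ddit4* (0.0026) on day 5 also turned above 0. The cause of these changes was not tested.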
